A study of Mus musculus with 9 samples.

Results

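Retinal ganglion cells are the output neurons of the retina, and 10 genes that mark them were followed here in mouse retinas kept under light-emitting diodes (LEDs). They are the POU-domain transcription factor genes Pou4f1, Pou4f2 and Pou4f3, the RNA-binding protein gene Rbpms, the neurofilament genes Nefl, Nefm and Nefh, the synuclein gene Sncg, the surface glycoprotein gene Thy1 and the melanopsin gene Opn4. The members were chosen by name, and every probe set that the annotation of the array platform gave to one of these symbols alone was used. Of the 10 genes, 9 had such a probe set, 15 probe sets in all, among 18193 genes on the array, and Pou4f2 is named only. Each gene was represented by its brightest probe set over the 9 arrays. Of the 9 genes, 8 passed the filter on dim signal (a mean of at least 5.91 on the log2 scale) and were tested among 12761 genes, and Pou4f3 did not pass.

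RNA of the neurosensory retina was measured on 9 Affymetrix mouse genome arrays, each from a pool of 3 right-eye retinas, and arrays are named below by group and replicate number. All mice were female, aged 10 weeks, of the albino BALB/c strain, which the labels write Babl/c, and no engineered allele is named. The 3 control arrays came from mice held in relative darkness. The other groups, also of 3 arrays each, were named for the correlated colour temperature of the white LED above the animals, 2954K or 7378K, where a higher value means bluer light. Exposure took 14 days with lamps on for 12 h and off for 12 h of each day, at an illuminance of 1000 lx. No light level is given for the controls. Retinas were pooled and single animals cannot be seen, so n = 3 is the number of pools in each group.

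Ganglion cells collect the signals of bipolar and amacrine cells and send them to the brain through axons that form the optic nerve. Their loss is the defining feature of glaucoma and optic neuropathy, in which a fall of Pou4f, Rbpms, Thy1, Sncg and neurofilament transcripts is commonly used as a readout of that loss. A small class, the intrinsically photosensitive ganglion cells, holds melanopsin and responds to light directly, signalling through a Gq-type G protein, phospholipase C and TRPC channels, and it drives the pupil reflex and the setting of the circadian clock.

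Signals of the rod genes Gnat1 and Sag, between 14.39 and 15.09 (log2) on the 9 arrays, were those of retina, and the pigment epithelium gene Rpe65 was also present (9.73 to 11.83) although that layer had been removed. Some arrays stood apart. RNA quality was read from the Gapdh and beta-actin control probe sets, as the signal at the 3' end minus that at the 5' end. This 3' minus 5' difference is larger in RNA that is less intact, and labelling can also move it. It does not separate these, and RNA quality stands for both below. The difference was 0.33, 0.20 and 0.42 in controls 1 to 3, 2.78, 0.21 and 1.05 in 2954K 1 to 3, and 1.80, 1.67 and 1.55 in 7378K 1 to 3. The 2954K group held both the largest and a small value, with replicate 2 at the level of the controls. The mean 3' minus 5' difference was 1.36 higher in the 7378K group than in the controls (exact two-sided permutation p = 0.1, the smallest that 3 against 3 arrays allow; adjusted p = 0.3 over 3 tests). These 2 groups did not overlap in it, and its SD was 0.12 in the controls, 1.31 under 2954K and 0.13 under 7378K light. Where the 3' minus 5' difference was added to a fit below, its slope therefore came almost wholly from the 2954K arrays. For 7378K against control, light and RNA quality cannot be told apart, with or without that covariate. Lens transcripts were high on the third array of each group, and the log2 of the summed signal of 8 lens genes ran from 7.74 to 16.93 in the controls, 7.45 to 14.32 in the 2954K group and 6.76 to 12.03 in the 7378K group.

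None of the 8 tested ganglion cell genes changed past the test under either LED. In limma, 0 of the 8 tested members had an adjusted p under 0.05 for 2954K against control, 0 for 7378K against control, 0 for 7378K against 2954K and 0 for the 2 LED groups averaged and set against the controls. The same test called 1.22%, 3.52%, 0% and 3.46% of all 12761 genes in these comparisons. An unadjusted p under 0.05 was reached by 0, 0, 0 and 1 (Nefh) of the 8, beside 1666, 2883, 519 and 2753 of all 12761 genes. The median of the 8 log2 differences was -0.05 under 2954K and 0.04 under 7378K light, beside 0.01 and 0.04 over all genes tested. The median size of the difference, sign ignored, was 0.12 in both comparisons, beside 0.17 and 0.21 over all genes. Since whole retinas were measured, fewer ganglion cells and less of a transcript per cell cannot be told apart.

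**Figure D1:**
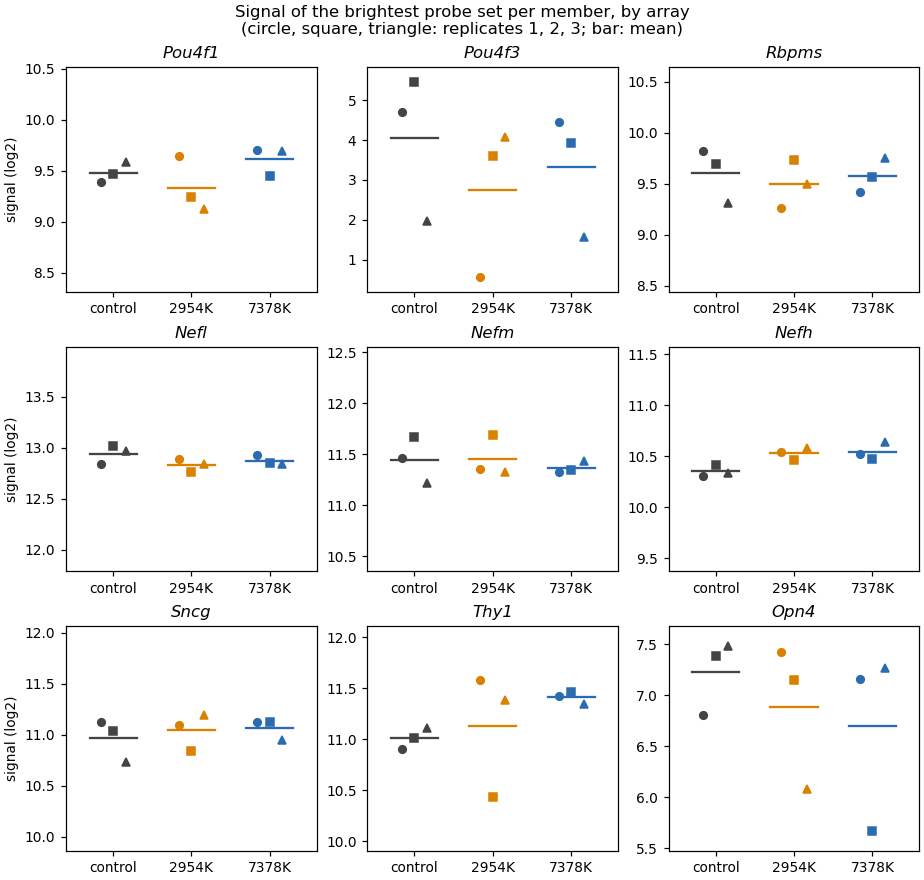
Signal (log2) of the brightest probe set of 9 members on each array, by group, with replicates 1, 2 and 3 as circle, square and triangle and the group mean as a bar. All panels but that of Pou4f3 have the same span; Nefh lay higher on all 6 LED arrays than on the controls, and Thy1 was lowest in 2954K 2.

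**Figure D2:**
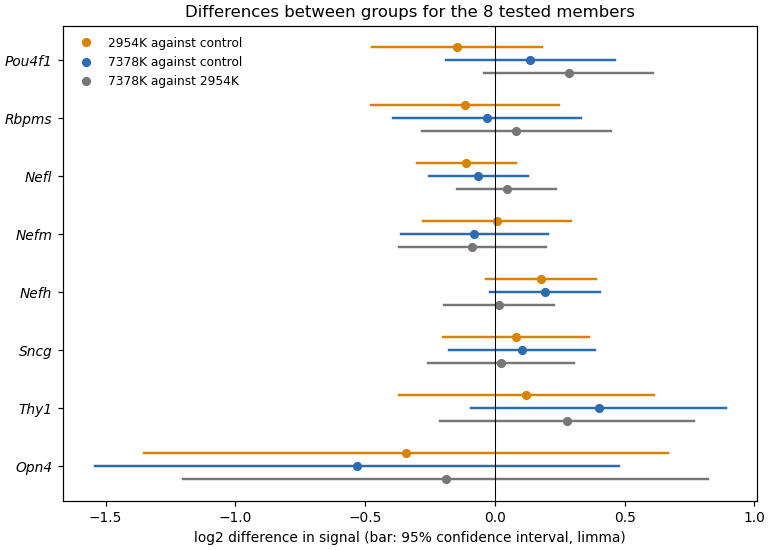
Log2 differences in signal of the 8 tested members for 3 comparisons, with 95% confidence intervals from limma. The intervals of all 8 members span 0 in each of the 3 comparisons; those of Nefl are the narrowest and those of Opn4 the widest.

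The Pou4f genes encode the transcription factors (Brn3a, Brn3b and Brn3c) that specify ganglion cells and maintain their axons and survival. Pou4f1 measured 9.39, 9.47 and 9.58 (log2 signal) in controls 1 to 3, 9.64, 9.24 and 9.12 in 2954K 1 to 3, and 9.71, 9.45 and 9.69 in 7378K 1 to 3. The controls overlapped with both LED groups, and 2954K 3 was the lowest array. Its difference from control was -0.15 under 2954K light (95% confidence interval -0.47 to 0.18, adjusted p = 0.71 in limma) and 0.14 under 7378K light (interval -0.19 to 0.46, adjusted p = 0.63). Between the LED groups it was 0.28 higher under 7378K light, with an interval of -0.04 to 0.61 and an adjusted p of 0.98. With the 3' minus 5' difference in the fit the value was -0.33 under 2954K (adjusted p = 0.51) and turned to -0.10 under 7378K light (adjusted p = 0.91). The dimmer Pou4f1 probe set, 1429668_at, measured 8.45, 8.55 and 8.44 in the controls, 8.13, 8.36 and 7.67 under 2954K and 8.48, 7.90 and 8.33 under 7378K light. On this probe set all 3 arrays of the 2954K group lay below all controls, by 0.43 on average (adjusted p = 0.44 over probe sets in limma), whereas the brighter one overlapped with the controls. The pair of probe sets gave opposite signs for 7378K against control, 0.14 and -0.24.

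Pou4f3, found in fewer ganglion cells and best known from the hair cells of the inner ear, was dim and scattered. It measured 4.72, 5.46 and 1.97 in the controls, 0.56, 3.61 and 4.09 under 2954K and 4.46, 3.92 and 1.57 under 7378K light. Arrays of 1 group scattered widely, all 9 values lay below the filter value of 5.91, and the gene was not tested.

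Rbpms encodes an RNA-binding protein that in the retina marks nearly all ganglion cells, and outside it is also found in smooth muscle and heart. The brightest of its 4 probe sets, 1429359_s_at, measured 9.83, 9.69 and 9.31 in controls 1 to 3, 9.26, 9.73 and 9.50 in the 2954K group and 9.42, 9.57 and 9.75 in the 7378K group. The 3 groups overlapped. The differences from control were -0.11 (95% confidence interval -0.48 to 0.25, adjusted p = 0.81 in limma) under 2954K and -0.03 (interval -0.39 to 0.33, adjusted p = 0.93) under 7378K light. After adjustment for the 3' minus 5' difference both turned positive, to 0.09 (adjusted p = 0.94) and 0.23 (adjusted p = 0.76).

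The other Rbpms probe sets did not follow the brightest one, and they differed from each other in direction. Probe set 1437161_x_at measured 7.62, 7.92 and 7.86 in the controls, 7.69, 7.48 and 7.53 under 2954K and 7.11, 7.03 and 7.13 under 7378K light. It was lowest on the 3 arrays of the 7378K group, with no overlap with either other group, at a difference of -0.71 ± 0.20 (SE) from control (adjusted p = 0.079 over 22646 probe sets in limma). Probe set 1455936_a_at ran the other way, with 7.16, 7.02 and 6.64 in the controls, 8.05, 6.89 and 7.10 under 2954K and 7.33, 7.76 and 7.85 under 7378K light, a difference of 0.71 ± 0.32 for 7378K against control (adjusted p = 0.22). The fourth, 1425652_s_at, measured 8.33, 8.58 and 7.63 in the controls, 6.79, 8.97 and 7.79 under 2954K and 7.59, 7.03 and 7.21 under 7378K light, a difference of -0.90 ± 0.46 for 7378K (adjusted p = 0.27).

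The divergence between these probe sets was also taken as a difference within each array. The difference 1455936_a_at minus 1437161_x_at was -0.86 ± 0.38 in the controls, -0.22 ± 0.51 under 2954K and 0.56 ± 0.29 under 7378K light (log2, mean ± SD, n = 3). It was below 0 on all 3 controls and above 0 on all 3 arrays of the 7378K group. This pair was chosen after its values had been seen, so no test is given. The 3' minus 5' difference moved the same way between these groups. With it added to the limma model, the 7378K difference was -0.81 for 1437161_x_at (adjusted p = 0.30), 0.13 for 1455936_a_at (adjusted p = 0.96) and 0.19 for 1425652_s_at (adjusted p = 0.93). In the naming of this array, a suffix a marks probes shared by alternative transcripts of 1 gene, s probes shared by several transcripts, and x probes that may also bind other transcripts. Which transcripts each probe set measured was not tested.

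**Figure D3:**
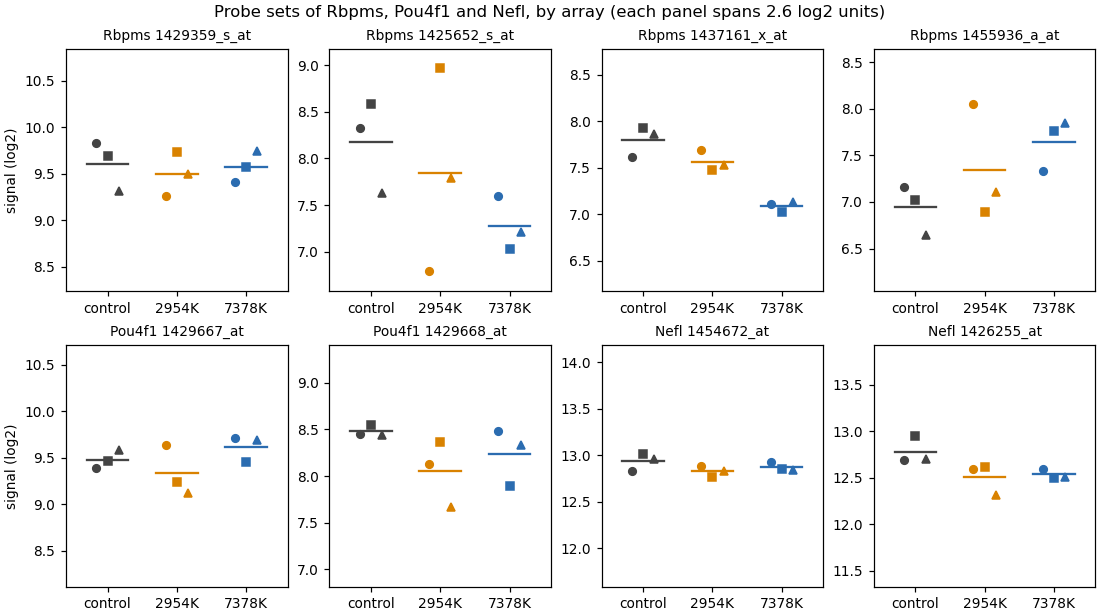
Signal (log2) of the 4 probe sets of Rbpms and the 2 each of Pou4f1 and Nefl on every array, by group, with replicates 1, 2 and 3 as circle, square and triangle and group means as bars. Rbpms 1437161_x_at is lower and 1455936_a_at higher under 7378K light than in the controls, while the brightest Rbpms probe set overlaps between all groups.

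Neurofilaments are the intermediate filaments of large axons, built from a light (Nefl), a medium (Nefm) and a heavy (Nefh) chain, and in the retina they are most abundant in ganglion cells and also found in horizontal cells. Nefl and Nefm are neighbouring genes in the mouse genome (RefSeq, GRCm38.p6). Nefl was the steadiest member, with 12.83, 13.01 and 12.96 in the controls, 12.88, 12.76 and 12.83 under 2954K and 12.93, 12.85 and 12.84 under 7378K light. All 9 arrays fell within 0.25 on the log2 scale and the groups overlapped. The difference was -0.11 under 2954K (95% confidence interval -0.30 to 0.08, adjusted p = 0.62 in limma) and -0.06 under 7378K light (interval -0.26 to 0.13, adjusted p = 0.71). A fall beyond 0.30 lay outside both intervals for this brightest probe set, which does not hold for the second one below. Adjusted for the 3' minus 5' difference, the values were -0.16 and -0.12 (adjusted p = 0.64 and 0.75).

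The second Nefl probe set, 1426255_at, was lower on every LED array than on every control. It measured 12.69, 12.94 and 12.71 in the controls, 12.60, 12.62 and 12.31 under 2954K and 12.60, 12.50 and 12.51 under 7378K light. Its difference was -0.27 ± 0.11 (SE) under 2954K and -0.24 ± 0.11 under 7378K light (adjusted p = 0.38 and 0.21 over probe sets in limma). The mean of both LED groups was 0.26 below control by this probe set, a difference of -0.26 ± 0.09 (SE; adjusted p = 0.15 over probe sets in limma). Adjusted for the 3' minus 5' difference, the values were -0.28, -0.26 and, for both LED groups, -0.27 (adjusted p = 0.59, 0.60 and 0.53). Over the 12761 genes, the LED arrays lay wholly above or below the controls for 10.5% of genes.

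Nefm measured 11.46, 11.66 and 11.22 in the controls, 11.36, 11.69 and 11.32 under 2954K and 11.33, 11.34 and 11.44 under 7378K light. Replicate 2 was the highest in the control and 2954K groups, and the groups overlapped. The difference was 0.01 under 2954K (95% confidence interval -0.28 to 0.29) and -0.08 under 7378K light (interval -0.36 to 0.21), with adjusted p of 0.98 and 0.77 in limma. Adjusted for the 3' minus 5' difference, the values were 0.14 and 0.09 (adjusted p = 0.85 and 0.92).

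Nefh was the one member that was higher on all 6 LED arrays than on all 3 controls. It measured 10.30, 10.42 and 10.34 in the controls, 10.55, 10.46 and 10.59 under 2954K and 10.52, 10.47 and 10.65 under 7378K light. The means were 10.35 ± 0.06, 10.53 ± 0.06 and 10.55 ± 0.09 (SD, n = 3). The difference was 0.18 under 2954K (95% confidence interval -0.03 to 0.39, adjusted p = 0.46 in limma), 0.19 under 7378K (interval -0.02 to 0.41, adjusted p = 0.26) and 0.19 for both LED groups together (interval 0.003 to 0.37, adjusted p = 0.22), which is 1.14-fold. Of all genes tested, 5.84% were higher on every LED array than on every control, and 1 of the 8 members was. With the 2954K arrays alone above the controls the share was 7.68% of all genes and 1 member, and with the 7378K arrays alone 21.6% and 2 members (Nefh and Thy1). With the 3' minus 5' difference in the fit Nefh was 0.17 higher in both LED groups together (adjusted p = 0.66), and the part of RNA quality in these values was not tested further.

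Sncg encodes gamma-synuclein, a small protein of axon terminals that is enriched in ganglion cells. It measured 11.12, 11.04 and 10.73 in the controls, 11.09, 10.84 and 11.19 under 2954K and 11.13, 11.12 and 10.95 under 7378K light. Control 3 and 2954K 2 were the lowest arrays and the groups overlapped. The differences were 0.08 under 2954K (95% confidence interval -0.20 to 0.36, adjusted p = 0.83 in limma) and 0.10 under 7378K light (interval -0.18 to 0.38, adjusted p = 0.67). After adjustment for the 3' minus 5' difference both were 0.008 (adjusted p = 0.992 and 0.996).

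Thy1 encodes a surface glycoprotein of ganglion cells that is also found on T cells, fibroblasts and vessel cells, and it varied most between arrays among the brighter members. It measured 10.91, 11.02 and 11.11 in the controls, 11.58, 10.43 and 11.38 under 2954K and 11.43, 11.46 and 11.34 under 7378K light. The 7378K arrays lay above all controls, and in the 2954K group replicates 1 and 3 lay above them and replicate 2 was the lowest of the 9 arrays. The difference was 0.12 under 2954K (95% confidence interval -0.37 to 0.61, adjusted p = 0.85 in limma) and 0.40 under 7378K light (interval -0.09 to 0.89, adjusted p = 0.32). For 7378K against control, 36.4% of all genes had groups that did not overlap, and for 2954K against control 15.2%. Between the LED groups this held for 8.56% of all genes (5.27% higher under 7378K light) and for 0 of the 8 members.

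The result for Thy1 turned on 2954K 2. Without that array Thy1 was 0.47 higher under 2954K light (adjusted p = 0.024 in limma), 0.40 higher under 7378K light (adjusted p = 0.022) and 0.44 higher in both LED groups together (adjusted p = 0.0075). With control and 7378K arrays alone in the fit, the 7378K difference had an adjusted p of 0.0072. Thy1 moved with the 3' minus 5' difference. The 5 arrays with a 3' minus 5' difference over 1 were the 5 with the highest Thy1, and 2954K 2 was at 0.21. With the difference as a covariate the sign turned, to -0.29 under 2954K (adjusted p = 0.67 in limma) and -0.14 under 7378K light (adjusted p = 0.89). The slope behind these values came almost wholly from the 2954K arrays, and light and RNA quality cannot be told apart for 7378K against control.

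Markers of other cells that hold Thy1 were mixed between the 7378K group and the controls. Of 9 pericyte and smooth muscle genes, 3 were higher on every 7378K array than on every control (Rgs5, Kcnj8 and Notch3) and 2 lower (Tagln and Myh11). Over all 12761 genes, 36.4% did not overlap between these groups and 21.6% were higher under 7378K light, so such counts are common here. Rgs5, a pericyte gene, ran from 11.60 to 11.76 in the controls and from 11.98 to 12.10 under 7378K light (adjusted p = 0.073 in limma). Of 7 tested endothelial genes, 2 were higher without overlap (Kdr and Flt1) and 5 overlapped, and the 3 tested fibroblast genes overlapped. Of 7 T cell genes, 6 had a probe set and 5 of these were dim, among them Cd3d, Cd3e and Cd3g, which lay between 1.11 and 5.61 on the 9 arrays. The log2 of the summed T cell signal ran from 7.11 to 7.73 in the controls, 6.54 to 7.40 under 2954K and 6.82 to 7.71 under 7378K light. That of the 9 pericyte and smooth muscle genes ran from 12.35 to 12.73, 12.41 to 13.12 and 12.64 to 12.73, where controls 1 and 2 lay below the 7378K arrays and control 3 above them, and that of 5 fibroblast genes from 8.52 to 10.44, 8.68 to 10.93 and 8.55 to 9.03. Of 8 endothelial genes the sum ran from 11.54 to 11.69 in the controls and from 11.76 to 11.82 under 7378K light, where the groups did not overlap, and from 11.61 to 11.98 under 2954K light. The part of these cells in the Thy1 values was not tested.

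**Figure D4:**
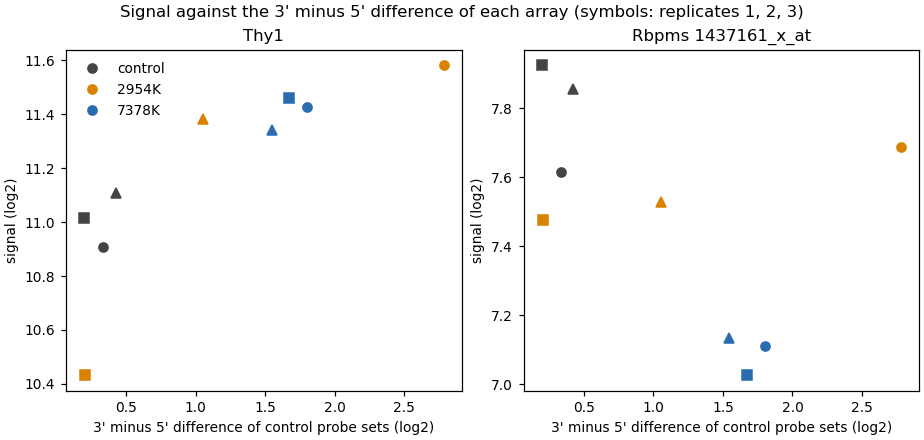
Signal (log2) of Thy1 (left) and of the Rbpms probe set 1437161_x_at (right) against the 3' minus 5' difference of the same array (log2), coloured by group, with replicates 1, 2 and 3 as circle, square and triangle. The 5 arrays with a difference over 1 have the highest Thy1; for the Rbpms probe set, 2954K 1 has the largest difference, 2.78, and a signal of 7.69, inside the range of the controls.

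Opn4 encodes melanopsin, the photopigment of the intrinsically photosensitive ganglion cells, and it was measured by dim probe sets with wide errors. The brighter one, 1421584_at, gave 6.81, 7.38 and 7.48 in the controls, 7.43, 7.15 and 6.08 under 2954K and 7.16, 5.66 and 7.26 under 7378K light. One array in each LED group was low, 2954K 3 and 7378K 2, and the remaining 7 arrays lay between 6.81 and 7.48. The difference was -0.34 under 2954K (95% confidence interval -1.35 to 0.67, adjusted p = 0.79 in limma) and -0.53 under 7378K light (interval -1.54 to 0.48, adjusted p = 0.53). With the 3' minus 5' difference in the fit the values were -0.55 and -0.80 (adjusted p = 0.86 and 0.76). These intervals reach from a fall of more than 2-fold to a rise, so a moderate change of Opn4 was not detectable with these arrays. The second probe set, 1445121_at, gave 6.88, 6.66 and 6.66 in the controls, 6.58, 6.70 and 6.36 under 2954K and 7.27, 6.73 and 6.87 under 7378K light. It showed no low value in 7378K 2, and its difference under 7378K light had the opposite sign, 0.22 (adjusted p = 0.67 over probe sets).

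Of the genes through which melanopsin signals or that mark its cells, Gna14 passed the test under each LED and Arrb2 under 7378K light. These calls were lost with the 3' minus 5' difference in the fit. For both LED groups together both genes passed (adjusted p = 0.0089 and 0.034 in limma). With that difference in the fit Gna14 still passed there, at 1.42 (adjusted p = 0.034), and Arrb2 did not, at 0.30 (adjusted p = 0.42). Of 15 listed genes, 14 were tested, and 1 rose and 0 fell under 2954K light, 2 rose and 0 fell under 7378K light, and 0 changed between the LED groups, beside 1.22%, 3.52% and 0% of all genes called. For both LED groups together 2 rose and 0 fell, beside 3.46% of all genes called. An unadjusted p under 0.05 was reached by 4, 6, 0 and 6 of the 14 in the 4 comparisons, beside 1666, 2883, 519 and 2753 of all 12761 genes. The median difference was 0.17 and 0.26, beside 0.01 and 0.04 over all genes. Gna14, a G protein alpha subunit of the Gq family, measured 6.61, 6.56 and 6.94 in the controls, 7.51, 7.95 and 8.23 under 2954K and 8.21, 7.74 and 7.80 under 7378K light. All LED arrays lay above all controls, at 2.30-fold for 2954K (adjusted p = 0.039 in limma) and 2.32-fold for 7378K (adjusted p = 0.021). Arrb2, a beta-arrestin that binds active receptors of many kinds, measured 9.25, 9.13 and 9.30 in the controls, 9.99, 9.33 and 9.77 under 2954K and 10.08, 9.94 and 9.85 under 7378K light, and rose 1.66-fold under 7378K light (adjusted p = 0.029).

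The calls of Gna14 and Arrb2 were sensitive to single arrays. For both LED groups together, Gna14 lost its call in 2 of 9 refits, each without 1 array, and Arrb2 in 7 of 9. Of 9 refits, each without 1 array, Gna14 lost its call for 2954K in 6 (without control 1 or 2, 2954K 3 or any 7378K array) and for 7378K in 5 (without control 1 or 2 or any 7378K array). With the 3' minus 5' difference in the fit its adjusted p was 0.063 and 0.065, at differences of 1.38 and 1.45. Arrb2 lost its call under 7378K light in the same 5 and with the covariate, at a difference of 0.39 (adjusted p = 0.35). Without 2954K 2, Arrb2 was called for 2954K, at 0.65 (adjusted p = 0.016). Eomes, a transcription factor of melanopsin cells, measured 8.37, 8.51 and 8.44 on average in the control, 2954K and 7378K groups, with differences of 0.14 and 0.07 from control. Adcyap1, the neuropeptide PACAP of these cells, was 4.19 in control 3 and between 6.58 and 7.92 on the other 8 arrays. Neither of them passed the test. Nor did the phospholipase C gene Plcb4 or the Gq-family genes Gnaq and Gna11. Under 2954K and 7378K light Plcb4 differed by 0.33 and 0.36 (adjusted p = 0.21 and 0.084 in limma). Gnaq differed by 0.29 and 0.49 (adjusted p = 0.46 and 0.10) and Gna11 by 0.52 and 0.46 (adjusted p = 0.24 and 0.16). Of the 14 tested, 3 were higher on every LED array than on every control (Gna14, Arrb2 and Plcb4), beside 5.84% of all genes.

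A wider set of ganglion cell genes held no called gene with all 9 arrays in the fit. Of 28 listed, 24 had a probe set and 23 were tested. In limma 0 rose and 0 fell in any of the 4 comparisons, beside 1.22%, 3.52%, 0% and 3.46% of all genes called. An unadjusted p under 0.05 was reached by 1, 6, 0 and 5 of the 23, beside 1666, 2883, 519 and 2753 of all 12761 genes. The median difference was -0.08 under 2954K and 0.01 under 7378K light. Uchl1, a neuronal deubiquitinase, measured 11.18, 11.06 and 11.32 in the controls, 10.60, 11.15 and 10.90 under 2954K and 10.84, 10.83 and 10.70 under 7378K light, 0.40 lower in the last group (adjusted p = 0.11). It passed for 7378K without 2954K 1 (adjusted p = 0.027), without 2954K 2 (adjusted p = 0.040) or with control and 7378K arrays alone (adjusted p = 0.012), and for both LED groups without 2954K 2 (adjusted p = 0.017). With the 3' minus 5' difference in the fit the Uchl1 value for 7378K was -0.15 (adjusted p = 0.80). Stmn2, a microtubule regulator of growing axons, measured 10.56, 10.79 and 10.63, then 10.35, 10.45 and 10.54, then 10.42, 10.39 and 10.22 in the same order, and every LED array lay below every control (adjusted p = 0.13 for both LED groups together). For 7378K, Stmn2 passed with control and 7378K arrays alone (adjusted p = 0.042). Chrnb3, a nicotinic receptor subunit, differed by -1.12 under 2954K light (adjusted p = 0.40) and -0.75 under 7378K light (adjusted p = 0.44). Single arrays ran from 4.77, in 2954K 1, to 7.43. With the 3' minus 5' difference in the fit the Chrnb3 values were -0.14 (adjusted p = 0.96 in limma) and 0.55 (adjusted p = 0.78). Nrn1, a neurite growth factor of ganglion cells, was 0.22 higher under 7378K than under 2954K light (adjusted p = 0.98).

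Of 15 axon cytoskeleton genes, all tested, 0 rose and 0 fell in any comparison with all 9 arrays, beside 1.22%, 3.52%, 0% and 3.46% of all genes called. An unadjusted p under 0.05 was reached by 1, 4, 0 and 4 of the 15, beside 1666, 2883, 519 and 2753 of all 12761 genes. Kif1a, a motor that carries synaptic vesicle precursors, had the widest spread of the 15. It measured 10.00, 10.35 and 9.49 in the controls, 6.58, 10.25 and 8.17 under 2954K and 8.02, 7.39 and 7.57 under 7378K light. The 5 arrays with a 3' minus 5' difference over 1 were the 5 lowest here, and 2954K 2 was at the control level. The difference was -1.61 under 2954K (adjusted p = 0.32) and -2.28 under 7378K light (adjusted p = 0.077). Without 2954K 2 it passed for 2954K at -2.57 (adjusted p = 0.0064), for 7378K (adjusted p = 0.0045) and for both LED groups (adjusted p = 0.0013). For 7378K it also passed without 2954K 1 (adjusted p = 0.0081) and with control and 7378K arrays alone (adjusted p = 2.6e-04). With the 3' minus 5' difference in the fit Kif1a differed by -0.23 and -0.47 (adjusted p = 0.92 and 0.77). Prph, peripherin, an intermediate filament partner of the neurofilaments, measured 6.23 ± 0.69 in the controls and 7.37 ± 0.20 under 7378K light (SD, n = 3; adjusted p = 0.105 in limma). Tubb3, the neuronal beta-tubulin, was 0.18 higher under 7378K than under 2954K light (adjusted p = 0.98).

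Genes that ganglion cells switch on after axon injury were mixed. Of 17 listed, 15 were tested, and 2 rose and 0 fell under 2954K light and 2 rose and 1 fell under 7378K light, beside 1.22% and 3.52% of all genes called. An unadjusted p under 0.05 was reached by 5, 7, 1 and 7 of the 15 in the 4 comparisons, beside 1666, 2883, 519 and 2753 of all 12761 genes. On the 7378K arrays 6 of the 15 were higher than on every control and 1 lower, beside 36.4% of all genes not overlapping. The risen genes were Atf3 and Jun, injury and stress transcription factors that other retinal cells also hold, at 3.89-fold and 1.56-fold under 2954K and 4.28-fold and 1.66-fold under 7378K light. Gadd45a, a DNA damage and stress gene, went the other way, with 10.89, 10.76 and 10.80 in the controls, 10.25, 10.52 and 10.35 under 2954K and 10.04, 10.27 and 10.22 under 7378K light. All LED arrays lay below all controls, at -0.64 ± 0.11 (SE) for 7378K (adjusted p = 0.0076 in limma) and -0.44 for 2954K (adjusted p = 0.094), and after adjustment for the 3' minus 5' difference the 7378K value was -0.51 (adjusted p = 0.10). Without 7378K 1 this call was lost, and without 2954K 2 Gadd45a was called for 2954K too. The calls of Jun and Atf3 under 7378K light held after that adjustment (adjusted p = 0.017 and 0.0074 in limma). Atf3 kept its call in all 19 alternatives, while Jun lost its call for 2954K in 12 of 19, 7 of them without 1 array (any control, 2954K 3 or any 7378K array), and for 7378K in 3 of 19, among them without 7378K 1 or 3. Of the axon injury genes, Sox11 differed by 0.21 and 0.32 and Ecel1 by 0.01 and 0.44 under 2954K and 7378K light, without passing. Sprr1a was dim. Klf6 differed by 0.42 and 0.47 and Tnfrsf12a by 0.79 and 0.70 in the same order. Neither passed (adjusted p = 0.28 and 0.11 for Klf6, 0.16 and 0.11 for Tnfrsf12a in limma). Of the 15 tested, 4 were higher on every LED array than on every control (Atf3, Jun, Klf6 and Tnfrsf12a) and 1 lower (Gadd45a). Over all genes 10.5% did not overlap in this way, and 5.84% were higher. Bbc3, a pro-apoptotic gene, was 0.66 higher under 7378K than under 2954K light (adjusted p = 0.98).

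**Figure D5:**
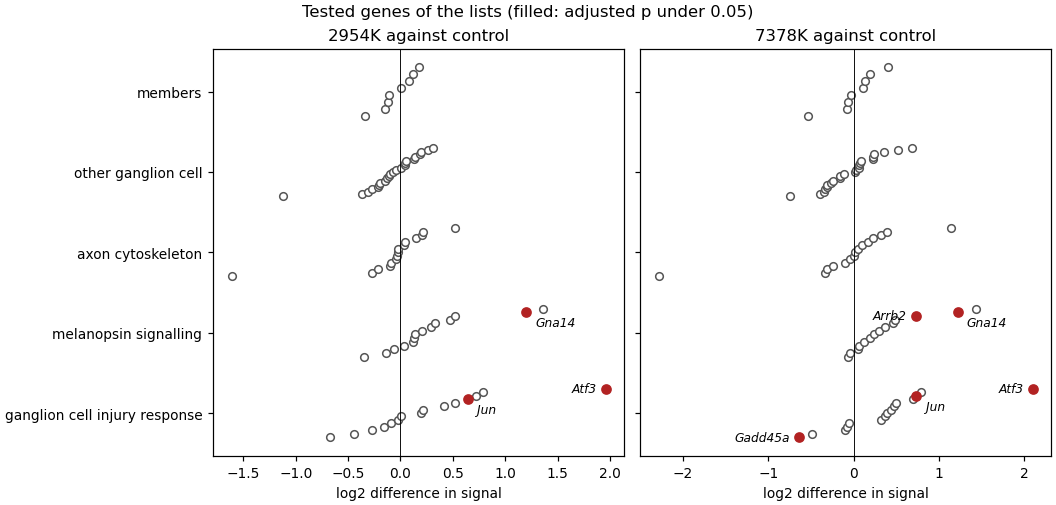
Log2 difference in signal of each tested gene under 2954K (left) and 7378K light (right) against control, for the members and 4 lists of related genes; filled points had an adjusted p under 0.05 in limma. No member and no gene of the wider ganglion cell or axon lists is filled, while Gna14, Arrb2, Atf3, Jun and Gadd45a are in 1 or both panels.

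Genes most like Pou4f1, Rbpms, Nefl and Opn4 in their pattern over the arrays were sought. By Pearson r over 9 arrays among 12131 other named genes, given as a description, they were Birc6, Osbp, Mkrn1 and Unc13c for Pou4f1 (r = 0.94 to 0.92) and Mpv17l, Unc80, Zfp106 and Mapk1ip1l for Rbpms (r = 0.95 to 0.91). For Nefl they were Tent2, Cnbp, Sox13 and Kifc1 (r = 0.97 to 0.87), and for Opn4 Mfsd4a, Fam25c, Tspan18 and Pdzk1ip1 (r = 0.95 to 0.91). Fam25c lies next to Sncg in the genome (RefSeq, GRCm38.p6), not next to Opn4. The arrays share groups and RNA quality differences.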

How the data were processed

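The deposited table held 45101 probe sets on 9 arrays and no empty cell. Its deposited log2 values are taken to be MAS5-type signals, because MAS5 and affy are the tools listed in the submitters' processing notes (no version or order). On the linear scale each array had a 2% trimmed mean of 500, so the values had been scaled array by array before deposit, and no further scaling was done. No detection calls were used, so signal over background is unknown. The small number of arrays limits precision. Same-numbered arrays of different groups were not treated as pairs.

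Of the probe sets, 34945 had 1 gene symbol in the platform annotation (34741 matched to RefSeq by gene ID). The brightest per gene was kept (18193 genes), and dim genes were dropped at the 40th percentile of probe set means. Group means were fitted over the 9 arrays with limma 3.58.1 (R 4.3.3, eBayes with an intensity trend, 6 residual degrees of freedom), and p-values were Benjamini-Hochberg adjusted over 12761 genes; a gene was called at an adjusted p under 0.05. The code was tested on simulated data. Exact permutation tests used scipy 1.17.1 and figures matplotlib 3.10.9.

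Members and lists were chosen with earlier results of these data known. The rule for naming genes took the members and the called genes of each related list or, with none, the 2 with the smallest p. It also took the 2 brightest genes of each marker list and the 4 genes most correlated with Pou4f1, Rbpms, Nefl and Opn4. Not all of the brightest genes are given here. Eomes, Adcyap1, Sox11, Ecel1, Sprr1a, Isl1, Cnga1 and the Cd3 genes were added after their values were seen. So were Klf6, Tnfrsf12a, Plcb4, Gnaq, Gna11, Kcnj8, Notch3, Tagln and Myh11. Alternatives were no filter, quantile normalisation, the mean of probe sets, single probe sets, the 3' minus 5' covariate (also with single probe sets, added after seeing the data), a replicate block, fewer arrays and no intensity trend.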

Additional observations from a re-analysis of the deposited data

Results flagged for a closer look

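Arrb1 and Foxp2, which passed no comparison, lay on opposite sides of the control mean in the 2 LED groups. For Arrb1, a beta-arrestin gene, every 2954K array lay below the control mean and every 7378K array above it, by -0.14 and 0.04 on average, a gap of 0.18 on the log2 scale. For Foxp2, a transcription factor of some ganglion cell types, every 2954K array lay above the control mean and every 7378K array below it, by 0.13 and -0.27, a gap of -0.40. For Arrb1 the opposition ended without control 2, where the 7378K difference was -0.039. The opposition of directions was not tested; in limma the adjusted p for 7378K against 2954K was 0.98 for both.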

How the results depend on the processing

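The count of changed members was 0 in all 4 comparisons under each alternative run, with these exceptions. It was 1 (Thy1) for 7378K against control with only the arrays of the compared groups in the fit, and over the fits that left out 1 array it ranged from 0 to 1 for each LED group and for both together against control, the 1 being Thy1 without 2954K 2. Of 600 recomputed member differences, 596 stayed on the same side of the threshold, 64 of them with the sign turned, and 4, all of Thy1, passed it. The 3' minus 5' difference of 7378K minus 2954K was 0.33, and over the values that left out 1 array it ran from -0.25 (without 2954K 2) to 1.04.

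The count of all called genes (156, 449, 0 and 441 in the 4 comparisons, in the order 2954K, 7378K, 7378K against 2954K, both LED groups) depended on the setting. With the mean of probe sets it was 82, 255 and 245 for the comparisons with control, with the 3' minus 5' covariate 102, 136 and 153, with single probe sets and that covariate 141, 172 and 212, without the third array of each group 90, 146 and 164, and without the intensity trend 101, 207 and 266. With only the compared groups in the fit it was 68 for 2954K and 2174 for 7378K. Without 1 array it ranged from 79 to 897 for 2954K (highest without 2954K 2), from 144 to 1517 for 7378K (highest without 2954K 1), from 0 to 29 between the LED groups (29 without 2954K 1) and from 164 to 1847 for both (highest without 2954K 2). With the mean of probe sets Isl1 turned to -0.11 for 7378K and -0.059 for both LED groups against control, and Cnp to -0.037 for both.

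With a replicate block the count of changed members stayed 0 in each comparison, and that of all genes was 163, 638, 0 and 622, beside 156, 449, 0 and 441 without it. Deviations of same-numbered arrays correlated at 0.061 to 0.33, all above 0, with 4 of 9 pairs below 0.1. Arrays of different number were not compared in this way, so these values cannot decide whether same-numbered arrays share a factor. In the main fit the numbers were not taken as pairing. Probe sets with wide spread, as for Opn4, and the number of arrays limit what could be detected.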

Other observations

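Among lists of other retinal and neighbouring cells, 3 genes were called, each for 7378K and for both LED groups together against control. They were 1 of 8 tested bipolar genes, 1 of 5 rod genes and 1 of 2 oligodendrocyte genes, and the remaining cell lists held none. Of all 12761 genes, 3.52% and 3.46% were called in these comparisons. Isl1, a transcription factor of bipolar, amacrine and ganglion cells, measured 12.23, 12.27 and 12.16 in the controls, 12.73, 12.46 and 12.57 under 2954K and 12.68, 12.67 and 12.72 under 7378K light, 0.47 higher in the last group (adjusted p = 0.018 in limma). Cnga1, a subunit of the rod cation channel, differed by -0.49 there (adjusted p = 0.0090), and Cnp, a myelin enzyme, was 0.67 higher (adjusted p = 0.041). After adjustment for the 3' minus 5' difference none of the 3 passed for 7378K against control (adjusted p = 0.15, 0.054 and 0.43 in limma). Leaving out 1 array ended the call in 6 of 9 refits for Isl1 (any control or any 7378K array), in 2 for Cnga1 (control 2 or 7378K 1) and in 7 for Cnp (any control, 2954K 3 or any 7378K array); without 2954K 2 all 3 were called for 2954K too. Of 12 amacrine genes, all tested, 0 were called in limma in any comparison. An unadjusted p under 0.05 was reached by 2, 2, 0 and 3 of the 12, beside 1666, 2883, 519 and 2753 of all 12761 genes. The brightest amacrine genes, Gad1 and Calb2, had control means of 13.61 and 12.78 and means of 13.64 and 12.62 under 7378K light.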
